A study of Bos taurus with 10 samples.

Results

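The genes described here encode proteases that cut extracellular matrix, blood clot and cell surface proteins, and the TIMPs and serpins that hold such proteases in check. Members were found by gene symbol: matrix metalloproteinases (MMP), ADAM and ADAMTS proteases, tissue inhibitors of metalloproteinases (TIMP), serpins other than SERPINA1, SERPING1 and SERPINH1, and PLAT, PLAU and PLAUR of plasminogen activation. They were 78 of 24016 probe sets on the Affymetrix GeneChip Bovine Genome Array and stood for 50 of the 9155 genes named by 1 symbol. By what their products are known to do, 24 genes (40 probe sets) were counted as proteases, 17 genes (27 probe sets) as inhibitors and 9 genes (11 probe sets) as neither. The last group holds PLAUR, a receptor, ADAMTSL2 and ADAM family members not counted as active proteases, and serpins that carry hormones or do not inhibit a protease. Of these ADAM members, ADAM1B was listed neither with the ADAM that carry the zinc-binding active site nor with those that lack it.

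Metalloproteinases need zinc to cut their substrates and are secreted or held at the membrane, where TIMPs bind to their active site. Serpins trap serine proteases by a change of their own shape that inactivates both partners. In milk and mammary tissue, plasminogen activators turn plasminogen into plasmin, which cuts caseins and fibrin, and neutrophils that enter an inflamed gland bring elastase and gelatinases with them.

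Mammary tissue came from primiparous German Holstein cows in mid lactation without a history of mastitis, whose estrus had been synchronized with cloprostenol and which had been milked out with oxytocin. The neighboring group (neighboring 1 to 5, 1 array per cow) was tissue that had received no bacteria, from cows in which another gland had been given 500 CFU of the mastitis isolate E. coli 1303. A further gland of these cows received 2 ml of sterile saline, and most neighboring samples mixed saline-treated with untreated tissue. The control group (control 1 to 5) was tissue of healthy cows without any inoculation. Tissue of all animals was taken 24 h after the start of the trial. In the sample list of the study, neighboring 4, control 3 and control 5 are single glands and the other samples pools of 2, whereas the methods name only neighboring 4 as single. The comparison asks whether transcripts of matrix proteolysis and of its control differ in glands away from the inoculated one.

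Values are log2 signals per probe set, with a precision limited by how few arrays there were. The fit used 8 arrays. Neighboring 5, which the study set aside for its profile, and control 3, set aside as a technical outlier, are given wherever single arrays are listed. The fit on all 10 arrays is given beside every member past the threshold and beside some others. Array medians lay between 6.25 and 6.27. The luminal epithelial markers identified mammary tissue, with mean log2 values of 12.13 to 12.39 on the 4 neighboring arrays of the fit and 12.09 to 12.20 on the 4 control arrays. Of the 8 luminal markers tested XDH alone passed, lower by 0.35 on 8 and on 10 arrays, while KRT18 (0.77) did not pass. Some markers of contractile and connective tissue cells and of leukocytes fell. Over all 7055 genes tested, each by its brightest probe set tested, 20.2% were higher and 11.5% lower. On 10 arrays 13.3% of them passed in either direction. The mean over 7 myoepithelial and smooth muscle markers was 8.62 to 9.10 on the neighboring arrays and 9.45 to 10.00 on the controls, and 5 of the 7 fell. The mean over 8 fibroblast markers was 8.03 to 8.78 and 8.89 to 9.32, with 3 lower and 1, PDGFRA, higher. The 4 macrophage markers averaged 7.01 to 7.74 and 7.89 to 8.22. MSR1 and AIF1 fell, while CSF1R (-0.07) and CD68 (0.10) did not pass. Of the 4 T cell markers 3 could be tested and 2 fell, with means of 5.94 to 6.59 and 6.64 to 6.93. In the fit on 10 arrays 3 myoepithelial, 4 fibroblast, 1 macrophage and 0 T cell markers were lower. On neighboring 5 the myoepithelial, fibroblast, macrophage and T cell means were 9.39, 8.64, 7.68 and 6.99, and on control 3 they were 9.63, 9.43, 7.5 and 6.66. The T cell mean of neighboring 5 thus lay above every control, and the macrophage mean of control 3 within the neighboring range. None of 5 tested endothelial markers passed. The measured neutrophil markers (3 genes) and adipocyte markers (3 genes) were too dim to be tested, with neutrophil means of 4.14 to 4.28 and 4.11 to 4.34. In bulk tissue, fewer cells of a type and less of a transcript per cell cannot be told apart, and the part of these marker differences in the results on the members was not tested. The RNA spiked in as a hybridization control read 10.20 to 10.43 on the neighboring arrays of the fit and 10.42 to 10.84 on the controls, with neighboring 5 at 10.65 and control 3 at 10.64.

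Probe sets in the lowest 40% by their mean over all 10 arrays (under 5.71) were left out before testing, which kept 38 of the 78 member probe sets and 25 of the 50 genes. Of the 38, 8 (21.1%) passed at an adjusted p under 0.05 in limma, 3 higher and 5 lower in neighboring glands, where 29.7% of all 14410 probe sets tested passed (17.7% higher, 12% lower). The members' share was lower in value, and whether it differs from this background was not tested. On all 10 arrays 4 of the 38 passed (10.5%), 2 in each direction, where 12.5% of all probe sets did (7.16% higher, 5.37% lower). The 8 probe sets belonged to 6 genes: SERPINB1 and ADAM9 higher, and MMP23, ADAM1B, ADAMTSL2 and SERPINF2 lower. When the fold was also required to exceed 2 and the adjusted p to be under 0.01, the thresholds of the study's methods, 1 probe set of SERPINB1 and 1 of MMP23 passed, and 2.76% of all probe sets did.

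**Figure D1:**
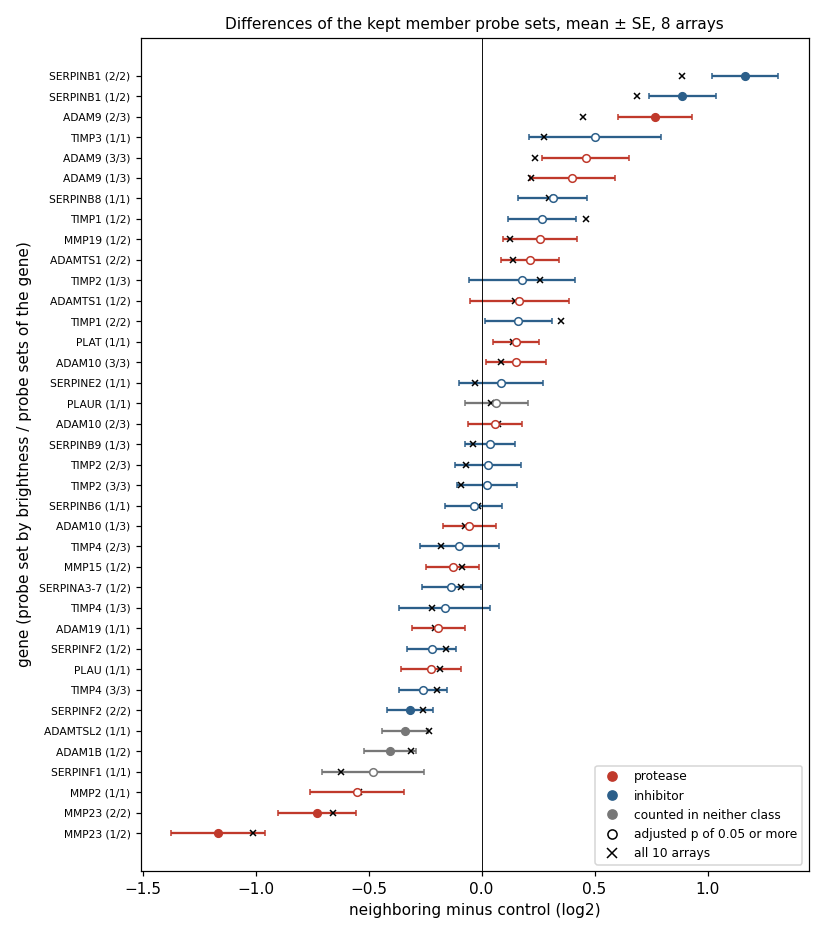
Difference between neighboring and control glands (log2) for each of the 38 member probe sets tested, with bars for limma's standard error on 8 arrays, filled points for an adjusted p under 0.05 and crosses for all 10 arrays. SERPINB1 lies at the upper end with 1.17 and 0.89 and MMP23 at the lower end with -1.17 and -0.73, and all other members lie between -0.55 (MMP2) and 0.77 (ADAM9).

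Among the matrix metalloproteinases, MMP23 fell on both of its probe sets. It encodes an unusual metalloproteinase that is anchored in the membrane by its amino terminus and released when that anchor is cut. On the brighter set neighboring 1 to 5 read 6.38, 6.70, 6.98, 6.35 and 7.48, and control 1 to 5 read 7.66, 7.48, 7.87, 7.56 and 8.37. The groups did not overlap on 8 arrays, and on 10 arrays neighboring 5 lay just under control 2. The mean was 6.60 ± 0.30 (SD, n = 4) in neighboring glands and 7.77 ± 0.41 in controls, a fall of 1.17 ± 0.21 (SE) with an adjusted p of 0.00292. On the dimmer set neighboring 1 to 5 read 6.17, 6.48, 6.47, 5.98 and 6.76, and control 1 to 5 read 6.77, 6.84, 7.13, 6.92 and 7.47. Again control 5 was the highest and neighboring 5 the nearest to the controls, and MMP23 fell by 0.73 ± 0.17 (adjusted p = 0.0110). In the fit on 10 arrays both sets passed, with differences of -1.01 (adjusted p = 0.0264) and -0.66 (adjusted p = 0.0331). Both passed without any 1 of the 8 arrays, with adjusted p-values of at most 0.00961 and 0.0299. With neighboring 5 alone put back, the dimmer set was no longer past the threshold (adjusted p = 0.0544).

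MMP2, the gelatinase that stromal cells secrete constitutively, was not past the threshold on 8 arrays. Its values were 8.60, 8.47, 8.77, 7.81 and 8.67 in neighboring 1 to 5 and 8.75, 9.38, 9.19, 8.93 and 8.80 in control 1 to 5. Neighboring 4 stood lowest and control 2 highest, and the groups overlapped through neighboring 3 and control 1. The difference was -0.55 ± 0.21 (SE; adjusted p = 0.0695) and -0.54 on all 10 arrays. It passed in 3 alternatives: with control 3 put back (-0.59, adjusted p = 0.0422), after cyclic loess scaling (-0.64, adjusted p = 0.0360) and with weights for all 10 arrays (-0.60, adjusted p = 0.0305). The mean over the fibroblast markers was also lowest on neighboring 4, at 8.03.

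MMP19 and MMP15, a secreted and a membrane-type enzyme, were the other MMPs bright enough to be tested. MMP19 read 6.78, 6.33, 6.20, 6.19 and 5.96 in neighboring 1 to 5 and 6.03, 5.89, 6.37, 6.49 and 6.06 in control 1 to 5, with overlapping groups and a difference of 0.26 ± 0.16 (adjusted p = 0.249). On all 10 arrays the MMP19 difference was 0.13. MMP15 differed by -0.13 ± 0.12 (adjusted p = 0.422). The gelatinase of neutrophils and macrophages, MMP9, and MMP14, the membrane enzyme that activates MMP2, lay under the limit. MMP9 read 4.94, 5.0, 4.60, 5.18 and 4.92 in neighboring glands and 4.89, 5.03, 4.98, 4.93 and 5.27 in controls, so no group stood apart. Its difference was -0.10 ± 0.14, with an adjusted p of 0.630 when no probe set was filtered out. The 3 probe sets of MMP14 differed by -0.05, -0.32 and 0.05, with adjusted p-values of 0.739, 0.0800 and 0.759 in that fit. Such dim signals do not show whether these transcripts were present.

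**Figure D2:**
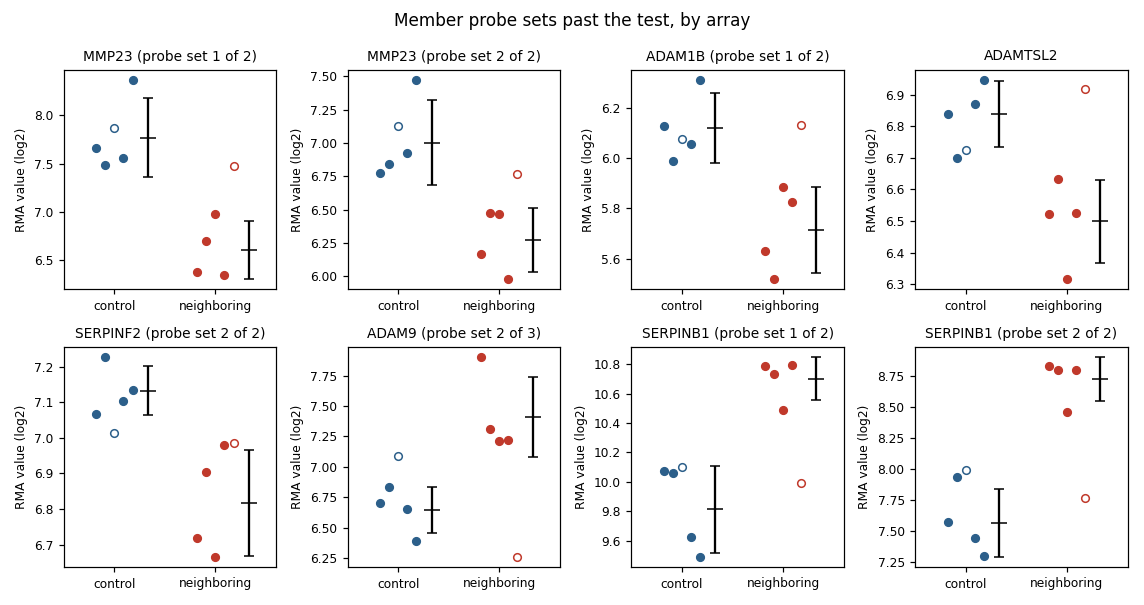
Log2 value of each array for the 8 member probe sets past the threshold, in separate panels with their own axes (control in blue, neighboring in red), with open circles for control 3 and neighboring 5, which did not enter the fit, and the mean ± SD of the 4 arrays of the fit beside them. Neighboring 5 lies nearer to the controls than the other neighboring arrays in the panels of MMP23, among the controls in those of ADAM1B, ADAMTSL2 and SERPINB1, below them in that of ADAM9 (6.26) and just under control 3 in that of SERPINF2 (6.99 against 7.01).

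ADAM9, a membrane protease that sheds growth factor precursors from the cell surface, was higher on 1 of its 3 probe sets. On that set neighboring 1 to 5 read 7.90, 7.31, 7.21, 7.22 and 6.26 and control 1 to 5 read 6.71, 6.83, 7.09, 6.65 and 6.39. The neighboring arrays of the fit all lay above the controls, and neighboring 5 lay below every control. ADAM9 rose 1.70-fold on this set, by 0.77 ± 0.16 (SE, adjusted p = 0.00707), and passed without any 1 of the 8 arrays (adjusted p at most 0.0217). With both arrays back the difference was 0.45 ± 0.25 with an adjusted p of 0.224.
The brightest ADAM9 set read 10.28, 9.82, 10.02, 9.86 and 9.20 in neighboring 1 to 5 and 9.88, 9.75, 9.71, 9.75 and 9.0 in control 1 to 5, a difference of 0.40 ± 0.19 (adjusted p = 0.131). The dimmest read 6.54, 5.86, 6.12, 5.90 and 5.33 and then 5.86, 5.84, 5.98, 5.75 and 5.13, a difference of 0.46 ± 0.19 (adjusted p = 0.0947). Neighboring 5 and control 5 were the lowest arrays of their groups on all 3 sets. Without control 5 the differences of the brightest and the dimmest set were 0.20 and 0.29, and on all 10 arrays they were 0.22 and 0.24.

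ADAM1B, related to a sperm surface protein, fell on the 1 of its 2 probe sets that was tested. Neighboring 1 to 5 read 5.63, 5.52, 5.88, 5.83 and 6.13 and control 1 to 5 read 6.12, 5.99, 6.07, 6.05 and 6.31, close to the limit for dim signals. The 4 neighboring arrays of the fit lay below all controls, and neighboring 5 lay among them. ADAM1B fell by 0.41 ± 0.12 (SE, adjusted p = 0.0244), with -0.31 on all 10 arrays (adjusted p = 0.0965). The call was lost without neighboring 2, control 1 or control 5, where its adjusted p ran from 0.0533 to 0.0641.
ADAM10, which sheds Notch and cadherins, differed by -0.05, 0.06 and 0.15 on its 3 probe sets, and ADAM19 by -0.19 (adjusted p = 0.240).

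ADAMTSL2, a secreted matrix protein that has the ADAMTS repeats but no protease domain, fell slightly. Neighboring 1 to 5 read 6.52, 6.63, 6.32, 6.53 and 6.92 and control 1 to 5 read 6.84, 6.70, 6.72, 6.87 and 6.95. The highest neighboring array of the fit read 6.63 and the lowest control 6.70, and neighboring 5 lay above 4 of the 5 controls. ADAMTSL2 fell by 0.34 ± 0.10 (SE, adjusted p = 0.0303). It did not pass on all 10 arrays (-0.23, adjusted p = 0.171) or without neighboring 3, neighboring 4, control 1, control 4 or control 5 (adjusted p from 0.0545 to 0.0870).
ADAMTS1, which cuts the proteoglycans aggrecan and versican, was the only ADAMTS protease bright enough to be tested. Its brighter set read 8.94, 9.23, 9.04, 8.99 and 8.81 in neighboring 1 to 5 and 9.46, 9.14, 8.74, 8.66 and 8.28 in control 1 to 5. The controls spanned the whole neighboring range, and the difference was 0.17 ± 0.22 (adjusted p = 0.581). The dimmer set differed by 0.21 ± 0.13 (adjusted p = 0.227).

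None of the 3 genes of plasminogen activation passed in either fit. PLAT, the tissue-type activator that works on fibrin, read 7.73, 7.64, 7.75, 7.92 and 7.68 in neighboring 1 to 5 and 7.58, 7.76, 7.60, 7.48 and 7.61 in control 1 to 5. Control 2 lay within the neighboring range, and the difference was 0.15 ± 0.10 (adjusted p = 0.274). PLAU, the urokinase-type activator that works at the cell surface, read 6.92, 7.36, 7.18, 7.24 and 7.46 in neighboring glands and 7.66, 7.48, 7.49, 7.24 and 7.21 in controls. The groups overlapped, with a difference of -0.22 ± 0.13 (adjusted p = 0.224). PLAUR, the receptor that holds urokinase at the membrane, read 6.17, 6.80, 6.67, 6.58 and 6.27 and then 6.58, 6.62, 6.32, 6.31 and 6.46. Its groups overlapped too, at 0.06 ± 0.14 (adjusted p = 0.746).

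All 4 TIMPs were bright enough to be tested, and none of their 9 probe sets passed on 8 or on 10 arrays. TIMP1, which inhibits most secreted MMPs, read 8.41, 8.77, 8.70, 8.27 and 8.29 in neighboring 1 to 5 and 8.29, 8.59, 7.04, 8.20 and 8.0 in control 1 to 5 on its brighter set. Control 3 lay far below the rest, at 7.04 here and at 6.75 on the other set, where the other 9 arrays read 7.66 to 8.34. The differences on 8 arrays were 0.27 ± 0.15 (adjusted p = 0.202) and 0.16 ± 0.15 (adjusted p = 0.420). With both arrays back they were 0.46 and 0.35.

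TIMP2 inhibits MMPs and also takes part in the activation of MMP2 at the cell surface. Its brightest set read 10.53, 10.44, 10.60, 9.46 and 10.04 in neighboring 1 to 5 and 9.79, 10.04, 9.46, 10.37 and 10.12 in control 1 to 5. Neighboring 4 and control 3 stood lowest, and the next array, control 1, read 9.79. The difference was 0.18 ± 0.24 (adjusted p = 0.587), and without neighboring 4 it was 0.44 with an adjusted p of 0.0459. The other sets differed by 0.03 and 0.02, and on these control 3 was the highest array (10.07 and 7.97), the opposite of its place on the brightest set.

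TIMP3, which stays bound to the matrix and also inhibits ADAM proteases, had the widest spread. It read 11.35, 10.13, 9.71, 10.24 and 9.32 in neighboring 1 to 5 and 10.01, 9.58, 9.94, 9.75 and 10.09 in control 1 to 5. Neighboring 1 alone lay over 1 unit above every other array, and neighboring 5 was the lowest of all. The difference was 0.50 ± 0.29 (adjusted p = 0.211), 0.17 without neighboring 1 and 0.28 on all 10 arrays. TIMP4 differed by -0.16 ± 0.20, -0.10 ± 0.17 and -0.26 ± 0.11 on its 3 sets (adjusted p = 0.555, 0.690 and 0.0887). On the dimmest TIMP4 set the arrays read 5.44, 5.79, 5.72, 5.78 and 5.93 and then 5.90, 5.98, 5.88, 5.85 and 6.03, so the groups of the fit did not overlap although the test was not passed.

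**Figure D3:**
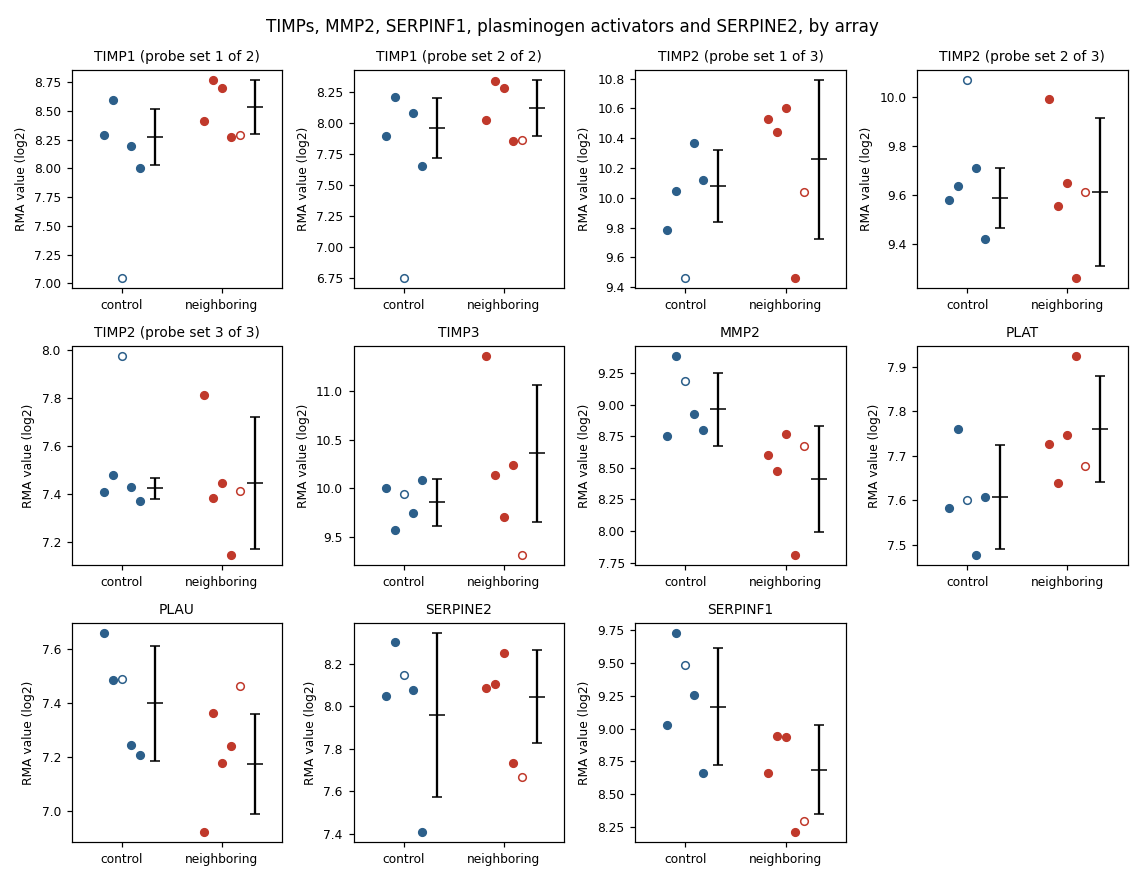
Log2 value of each array for TIMP1, TIMP2, TIMP3, MMP2, PLAT, PLAU, SERPINE2 and SERPINF1, in separate panels with their own axes, drawn as in the plot of the probe sets past the threshold. The groups overlap in every panel, and single arrays stand apart: control 3 at 7.04 for TIMP1, neighboring 1 at 11.35 for TIMP3, neighboring 4 at 7.81 for MMP2 and control 5 at 7.41 for SERPINE2.

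Among the serpins, SERPINB1 rose on both of its probe sets. It is an intracellular inhibitor of neutrophil elastase, cathepsin G and proteinase 3, abundant in neutrophils and monocytes and made by epithelia as well. On the brighter set neighboring 1 to 5 read 10.79, 10.73, 10.49, 10.79 and 9.99 and control 1 to 5 read 10.07, 10.06, 10.10, 9.63 and 9.49. The 4 neighboring arrays of the fit lay above all controls, and neighboring 5 lay among the controls. The mean was 10.70 ± 0.15 (SD, n = 4) against 9.81 ± 0.30, a 1.85-fold rise of 0.89 ± 0.15 (SE) with an adjusted p of 0.00227. On the dimmer set the arrays read 8.84, 8.80, 8.46, 8.81 and 7.77 and then 7.57, 7.94, 7.99, 7.44 and 7.30, in the same arrangement. SERPINB1 rose 2.24-fold there, by 1.17 ± 0.15 (adjusted p = 0.000581). They passed on all 10 arrays as well, at 0.69 (adjusted p = 0.0345) and 0.89 (adjusted p = 0.0297). Both also passed without any 1 of the 8 arrays, with adjusted p-values of at most 0.00831 and 0.00252. Of 6 listed neutrophil markers 3 were measured, with means below the limit for dim signals that overlapped between the groups. Such dim signals do not show whether neutrophil numbers differed. Of the 4 macrophage markers 2 fell, where 11.5% of all 7055 genes tested did. The part of cell numbers in the rise of SERPINB1 was not tested.

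SERPINF2, alpha-2-antiplasmin, the main inhibitor of plasmin, fell on 1 of 2 probe sets. On that set neighboring 1 to 5 read 6.72, 6.90, 6.67, 6.98 and 6.99 and control 1 to 5 read 7.07, 7.23, 7.01, 7.10 and 7.13. The groups did not overlap on 8 or on 10 arrays, although neighboring 5 lay close under control 3. SERPINF2 fell by 0.32 ± 0.10 (SE, adjusted p = 0.0383), with -0.26 on all 10 arrays (adjusted p = 0.0813). It passed without neighboring 2 or neighboring 4, but not without any of the other 6 arrays (adjusted p up to 0.107). The brighter set differed by -0.22 ± 0.11 (adjusted p = 0.146).

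SERPINF1, a secreted serpin that inhibits no protease and is known for limiting vessel growth, read 8.66, 8.94, 8.93, 8.21 and 8.29 in neighboring 1 to 5 and 9.02, 9.73, 9.48, 9.25 and 8.66 in control 1 to 5. Control 5 lay within the neighboring range. The difference was -0.48 ± 0.23 (adjusted p = 0.133) on 8 arrays and -0.62 ± 0.21 (adjusted p = 0.0675) on 10. SERPINE2, which inhibits thrombin, urokinase and plasmin, read 8.09, 8.10, 8.25, 7.74 and 7.67 and then 8.05, 8.30, 8.15, 8.08 and 7.41. Control 5 was far below the other controls, and the difference was 0.09 ± 0.19 (adjusted p = 0.747) and -0.03 on all 10 arrays. The intracellular SERPINB8, SERPINB9, which inhibits granzyme B, and SERPINB6 differed by 0.31, 0.04 and -0.04, with adjusted p-values from 0.144 to 0.849. SERPINA3-7 differed by -0.13 (adjusted p = 0.451). It is 1 of several near-identical bovine SERPINA3 genes, so its probe set may also read other copies.

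Proteases and inhibitors were compared by the median difference over genes, with each gene represented by its brightest probe set. Over the 10 protease genes tested the median was -0.09 (from -0.22 to 0.16 between the lower and upper quartiles), with 4 genes above 0 and 6 below. Over the 11 inhibitor genes it was 0.09 (-0.09 to 0.29), with 7 above 0 and 4 below. Over all 7055 genes tested it was 0.06 (-0.18 to 0.31). The class medians thus stood on either side of 0. The class median of each single control array had an SD over the 4 control arrays of 0.11 for proteases and 0.12 for inhibitors. Both class medians were smaller than this SD. It describes single arrays, which scatter more than a difference between means of 4 arrays, so it does not show whether the class medians exceed that scatter. The SD came from the genes and values of the main fit and was not computed again for other settings. In size the protease median was larger than it when classes were taken by gene name alone (-0.16). The same held with hybridization controls as a covariate (-0.15) and after cyclic loess scaling (-0.14). With a replicate block it was about as large as the SD (-0.114 against 0.114). The medians on all 10 arrays were -0.08 and -0.02. Taken over every probe set tested in place of 1 per gene, the protease median was 0.11 and the inhibitor median 0.03. Without the filter on dim signals the 24 protease genes had a median of -0.08 and the 17 inhibitor genes one of 0.04, against -0.0006 over all 9155 genes.
Of 16 protease probe sets tested, 1 rose (ADAM9) and 2 fell (both of MMP23), a share of 18.75%. Of 18 inhibitor probe sets, 2 rose (both of SERPINB1) and 1 fell (SERPINF2), a share of 16.7%. Of 4 in neither class 2 fell (ADAM1B and ADAMTSL2). Over all probe sets tested 29.7% passed (17.7% higher, 12% lower). Each class share rests on 3 probe sets, 2 of them of the same gene, and whether it differs from this background was not tested. The counts on all 10 arrays were 0 and 2 for proteases (12.5%), 2 and 0 for inhibitors (11.1%) and 0 for the rest. There 12.5% of all probe sets passed (7.16% higher, 5.37% lower).

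Array by array, the inhibitor median minus the protease median was 0.21, 0.18, 0.12, 0.07 and 0.09 in neighboring 1 to 5 and 0.05, 0.11, -0.07, -0.16 and 0.19 in control 1 to 5. It was above 0 on all neighboring arrays and on 3 of the 5 controls, and the groups overlapped. Control 5 lay as high as the neighboring arrays, and its protease median (-0.18) was the lowest of the 10.

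**Figure D4:**
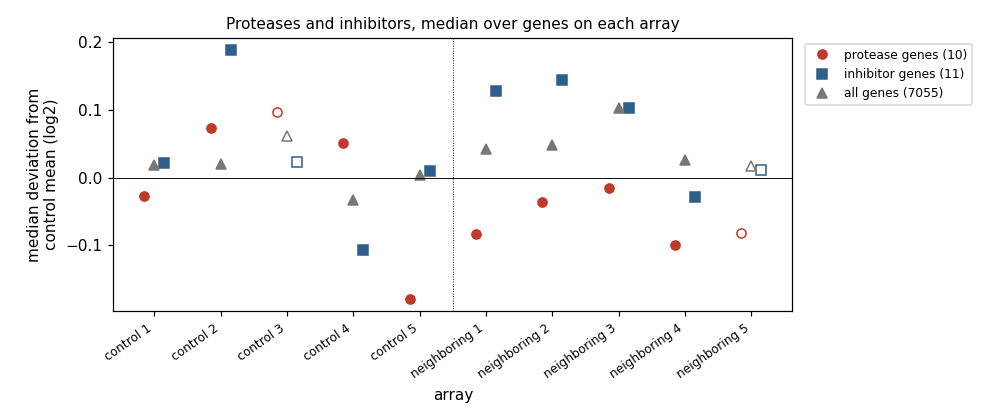
Median over genes of the deviation from the mean of the 4 control arrays of the fit (log2) on each array, for 10 protease genes (circles), 11 inhibitor genes (squares) and all 7055 genes (triangles), with open symbols for control 3 and neighboring 5. Inhibitors lie above proteases on every neighboring array by 0.07 to 0.21, and the 5 controls range from -0.16 to 0.19.

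The groups did not overlap on 8 arrays for 10 of the 38 member probe sets, 4 higher and 6 lower in neighboring glands, where this held for 31.7% of all probe sets (18.4% higher, 13.3% lower). With all 10 arrays it held for 3, both sets of MMP23 and 1 of SERPINF2, all lower, and for 7.28% of all probe sets (3.8% higher, 3.48% lower). Of the 9 member genes with several probe sets tested, 8 had differences of 1 sign on all of them, with ADAM10 as the exception. For ADAM9 and SERPINF2 some but not all sets passed.

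Other genes of the protease network were read from a separate list of 28 genes, of which 24 were measured and 21 tested. Each gene was represented by its brightest probe set tested. On 8 arrays 5 rose and 4 fell, where 20.2% of all 7055 genes taken in this way were higher and 11.5% lower. The median over the list was -0.01. A2M, the plasma protein that traps proteases of all classes, rose 1.69-fold (by 0.75 ± 0.16, adjusted p = 0.00745). ANXA2, which binds plasminogen and its tissue-type activator at the cell surface, rose 1.65-fold (by 0.72 ± 0.11, adjusted p = 0.00143). ST14, the epithelial membrane protease matriptase, rose 1.52-fold (by 0.61 ± 0.19, adjusted p = 0.0349). CST3, cystatin C, an inhibitor of cathepsins, fell by 0.63 ± 0.19 (adjusted p = 0.0286). The other genes past the threshold were FURIN and SPINT2, higher by 0.45 and 0.43, and TFPI2, BSG and CTSD, lower by 0.55, 0.41 and 0.37. Among those that rose, A2M and SPINT2 are inhibitors and FURIN and ST14 proteases, and among those that fell, CST3 and TFPI2 are inhibitors and CTSD a lysosomal protease. The largest difference of the list, that of the cathepsin gene CTSL (0.86 ± 0.32), did not pass (adjusted p = 0.0658). On all 10 arrays A2M (0.61), BSG (-0.44) and CTSD (-0.41) passed, where 13.3% of the same 7055 genes passed in either direction. PLG, the plasminogen gene itself, VTN and SLPI were too dim to be tested.

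Of the 50 member genes, 25 had no probe set with a mean above the limit. Of these 25, 21 read below it on every array, and ADAMTS2, ADAMTS4, SERPINA11 and SERPINC1 above it on at least 1. The 25 were MMP1, MMP3, MMP9, MMP13, MMP14, MMP16 and MMP20 (7 of 11 MMPs), ADAM2, ADAM12, ADAM15 and ADAM23 (4 of 8), ADAMTS2, ADAMTS4, ADAMTS5, ADAMTS6 and ADAMTS8 (5 of 7 ADAMTS and ADAMTS-like genes) and SERPINA6, SERPINA7, SERPINA10, SERPINA11, SERPINA14, SERPINC1, SERPIND1, SERPINI1 and SERPINI2 (9 of 17 serpins). All TIMPs and all 3 genes of plasminogen activation were above it. The share of member probe sets left out was 51.3%, against the 40% that the filter fixes over the array.
When no probe set was left out, 4 members rose and 7 fell of 78 on 8 arrays, where 20.3% of all 24016 probe sets passed (11.1% higher, 9.21% lower), and SERPINF2 was no longer among them (adjusted p = 0.0517). The additional calls were 1 of 3 sets of the stromelysin MMP3 (-0.53, adjusted p = 0.00709), 1 of 3 of the membrane-type MMP16 (-0.39, adjusted p = 0.0271), the neuroserpin gene SERPINI1 (-0.29, adjusted p = 0.0435) and SERPINC1, antithrombin (0.39, adjusted p = 0.0426). The MMP3 set read 3.15, 3.43, 3.25, 3.30 and 3.66 in neighboring 1 to 5 and 3.78, 3.79, 3.78, 3.67 and 4.02 in control 1 to 5, near the bottom of the scale, and the 2 brighter MMP3 sets differed by 0.04 and -0.09. On all 10 arrays without the filter 5 members passed, where 6.9% of all probe sets did. The MMP3 set was among them (adjusted p = 0.0374), while the MMP16 set, SERPINI1 and SERPINC1 were not (adjusted p = 0.192, 0.427 and 0.411). Low signals as a whole were lower on the neighboring arrays: the 9606 probe sets under the limit had a median difference of -0.10, with 6652 of them below 0, and the 40 member sets under it a median of -0.11, with 31 below 0.

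When the mean of the hybridization controls on each array entered the fit as a covariate, 1.74% of all probe sets passed (1.05% higher, 0.687% lower). These means nearly separated the groups, at 10.20 to 10.43 and 10.42 to 10.84, so the fit could hardly tell the group from the covariate. The SE grew from 0.21 to 0.37 on the brighter MMP23 set and from 0.15 to 0.26 on the dimmer SERPINB1 set. Calls lost here were therefore lost at a lower precision. Of the members, the dimmer set of SERPINB1 remained past the threshold (1.27, adjusted p = 0.0486). The brighter set of SERPINB1 then stood at 1.11 (adjusted p = 0.0623), MMP23 at -1.03 and -0.73 (adjusted p = 0.168 and 0.233) and ADAM9 at 0.60 (adjusted p = 0.290). ADAM1B, ADAMTSL2 and SERPINF2 stood at -0.33, -0.25 and -0.19, with adjusted p-values from 0.416 to 0.593. All 8 kept their direction, and the part of the hybridization signal in the results was not tested. With the replicate number as a block instead, 6 member probe sets passed, where 10.3% of all probe sets did. In that fit neighboring 3 and control 5 had no partner, so its differences came from replicate numbers 1, 2 and 4 alone.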

How the data were processed

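RNA of 10 mammary tissue samples, 1 per cow, was hybridized to the Affymetrix Bovine array. The values that the authors deposited are on a log2 scale, 1 per probe set, and were computed with RMA (background correction, quantile normalization and a summary over probes), which the submitters' processing notes name without a version. A change shared by most transcripts is not seen in such values, and fold changes are compressed. Arrays were grouped by their titles. Genes were named from platform annotation with 1 symbol (13318 probe sets), of which 13283, all 78 member probe sets among them, matched the reference gene table. Array controls (112) were left out, and no coordinates are given.

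Group means were compared with limma 3.58.1 in R 4.3.3 (lmFit, eBayes) over the 14410 probe sets left by the filter, with Benjamini-Hochberg adjustment over all of them. Every adjusted p comes from limma. The 40% filter replaced the study's present calls, which were not used here. SD is over the 4 arrays of a group and SE is limma's. The procedure was tested on simulated arrays. The members, classes, lists and tests were chosen with earlier results of these data known. Named genes were members past the threshold in either fit, PLAT, PLAU, PLAUR, SERPINE2, SERPINF2, MMP2, MMP9, MMP14 and the TIMPs, the brightest gene of each family and those with its highest and lowest difference. Of the list of other protease genes, the 4 largest changes among those past the threshold were named, and genes outside this rule were named after their values were seen. Alternatives changed which arrays entered, the dim-signal filter, the scaling between arrays, the variance model, weights for arrays, a replicate block, hybridization controls as a covariate, the thresholds, the probe set per gene and the classes. The fit without a filter on all 10 arrays was added after seeing the data.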

Additional observations from a re-analysis of the deposited data

Results flagged for a closer look

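Among 70 groups of 5 arrays over the probe sets of the named genes, 6 held an array whose gap to the next was over 0.71 of the group's range, a criterion that chance meets in about 1 in 20 groups, and all 6 were control groups. Control 5 was the lowest control for ADAM9 on its brightest set (9.0, the others 9.71 to 9.88) and its dimmest (5.13, the others 5.75 to 5.98). It was also the lowest for SERPINE2 (7.41, the others 8.05 to 8.30). Control 2 was the lowest on 1 set of MMP14 (4.15, the others 4.36 to 4.42). Control 3, which did not enter the fit, was the highest on the dimmest set of TIMP2 (7.97, the others 7.37 to 7.48). Control 4 was the lowest on 1 set of TIMP4 (8.07, the others 8.51 to 8.66).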

How the results depend on the processing

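Of the members, 3 probe sets were higher and 5 lower on 8 arrays. The count of higher sets was 1 with hybridization controls as a covariate and 1 at the study's thresholds, and 3 to 4 without any 1 array. The count of lower sets was 2 on all 10 arrays, 1 with neighboring 5 put back, 3 with a replicate block, 0 with the hybridization covariate (where 0.687% of all probe sets were lower), 3 on all 10 arrays with no filter, a setting chosen after seeing the data, and 1 at the study's thresholds. It was 2 to 4 without any 1 array: 2 without control 1 or control 5 and 3 without neighboring 3 or control 4. The protease median was 0.11 over every probe set tested, -0.16 with classes by gene name, -0.15 with the hybridization covariate, -0.14 after cyclic loess, -0.11 with the replicate block, and -0.10 to -0.04 without any 1 array. The inhibitor median was 0.03 to 0.19 without any 1 array and -0.02 on all 10. It exceeded the SD of the medians of single control arrays (0.121) without neighboring 4 (0.188), control 2 (0.166) or control 4 (0.124).

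Arrays with the same replicate number did not deviate together (correlations of -0.03, -0.03 and -0.05 for numbers 1, 2 and 4 across probe sets), so the numbers name arrays and do not pair them. In the fit with the replicate block neighboring 3 and control 5 had no partner, so its differences came from numbers 1, 2 and 4 alone. There 3 member sets were higher and 3 lower, where 10.3% of all probe sets passed. SERPINF1 passed (-0.73, adjusted p = 0.0414), while ADAM1B, ADAMTSL2 and SERPINF2 did not.

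No called member changed its direction in any alternative run. Among named probe sets that did not pass, 34 of 436 pairs of a value and a setting had the other sign. The precision is limited by 4 arrays per group and, for dim members such as MMP9 and MMP14, by signals near the bottom of the scale.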
